A study of Mus musculus with 3 samples.

Results

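The genes described here are the 75 mouse genes whose symbols start with Dnah, Dnaaf, Dnai, Dnal, Cfap, Rsph, Tekt, Spef or Drc followed by a digit, out of 31253 genes in each matrix. The rule uses the symbols and no measured value. They name the parts of the axoneme, the microtubule core of the motile cilium. By role they were 5 outer arm dynein heavy chains, 10 inner arm heavy chains, 2 dynein light chains, 7 assembly factors, 3 nexin link proteins, 10 radial spoke proteins, 8 central pair proteins, 11 tektins and doublet microtubule proteins, 6 proteins that anchor the inner arms, 12 other Cfap genes and 1 antisense RNA (Dnah2os). They were measured by droplet single-cell RNA sequencing in the arcuate nucleus, a hypothalamic region beside the third ventricle, in C57BL/6JRj males aged 5 to 6 weeks. The SC mice ate standard chow for 15 days after weaning. The 5-day mice had 10 days of chow followed by 5 days of a high-fat high-sugar diet (HFHS, 58%), and the 15-day mice ate the HFHS diet for 15 days. The micropunched tissue of 6 mice was pooled for each diet and digested into single cells, which gave 1 library per diet and no value for a single mouse. There is no replicate and no test of a difference between diets, and every interval covers counting error only.

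Motile cilia beat because dynein arms, fixed in rows along the outer microtubule doublets, walk on the neighbouring doublet and slide it. Outer arms supply most of the beat's force and inner arms shape the bend, while nexin links, radial spokes and the central pair turn sliding into a regulated stroke, and assembly factors build the arms in the cytoplasm before they enter the cilium. Multiciliated ependymal cells line the ventricle beside the arcuate nucleus and move cerebrospinal fluid. Tanycytes, the elongated cells of the ventricle's floor and lower walls, carry few cilia, and most neurons and astrocytes carry only a primary cilium, which lacks dynein arms and a central pair.

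RFX transcription factors, which drive many cilium genes, bind the X-box, and FOXJ1, the forkhead factor of motile ciliogenesis, binds forkhead motifs. Of the 75 genes, 62 had a promoter entry in RefSeq (GRCm38.p6), with 69 windows from 250 bases before to 50 bases after a start. The X-box half-site GTTGCC, searched on both strands, was in 25 of 69 windows (36.2%), against 12.5% of 32851 windows of all genes. By gene, it was in 7 of 27 members at least 5 times higher in ependymal-like cells than in every class but tanycyte-like cells. Among the other 35 members with a promoter entry it was in 16. The forkhead motif TGTTTNC was in 23 of 69 (33.3%) against 20.5%, and the general promoter motif CCAAT was in 26 of 69 (37.7%) against 37.4%. The paired X-box (GTTNCC, up to 3 bases, GGNAAC), which can overlap GTTGCC, was in 1 window, that of Cfap298 (1.45% against 0.804%). A match is a description, not a binding site or a cause, and these windows were chosen with the motif counts known. The 250 bases before the start are printed for 5 members in which those bases hold no annotated exon. Tekt1 and Tekt2 hold 2 matches each, Cfap20 and Dnah7a hold 1 each, and Dnah12, an inner arm heavy chain gene, holds none. Capitals mark GTTGCC or its reverse complement GGCAAC. The matches begin 15 and 35 bases before the start in Tekt1 (chr11:72361883-72362132, minus strand), 22 and 96 in Tekt2 (chr4:126325689-126325938, minus), 94 in Cfap20 (chr8:95434870-95435119, minus) and 200 in Dnah7a (chr1:53706785-53707034, minus). The Dnah12 window is chr14:26691304-26691553, plus strand.
Tekt1: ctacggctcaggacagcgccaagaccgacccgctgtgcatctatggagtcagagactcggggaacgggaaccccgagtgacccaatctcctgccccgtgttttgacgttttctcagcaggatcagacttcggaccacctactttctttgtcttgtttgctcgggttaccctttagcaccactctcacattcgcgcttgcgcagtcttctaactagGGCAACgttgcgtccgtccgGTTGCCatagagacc
Tekt2: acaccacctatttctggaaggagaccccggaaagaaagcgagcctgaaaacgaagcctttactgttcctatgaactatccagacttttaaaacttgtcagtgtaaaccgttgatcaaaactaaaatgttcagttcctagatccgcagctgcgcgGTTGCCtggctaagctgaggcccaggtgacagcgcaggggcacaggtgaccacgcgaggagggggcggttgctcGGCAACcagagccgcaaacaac
Cfap20: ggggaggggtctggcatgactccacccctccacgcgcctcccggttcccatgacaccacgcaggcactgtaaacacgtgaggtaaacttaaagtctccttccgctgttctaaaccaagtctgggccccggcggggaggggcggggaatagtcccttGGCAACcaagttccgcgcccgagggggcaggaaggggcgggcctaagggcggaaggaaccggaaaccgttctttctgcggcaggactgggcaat
Dnah7a: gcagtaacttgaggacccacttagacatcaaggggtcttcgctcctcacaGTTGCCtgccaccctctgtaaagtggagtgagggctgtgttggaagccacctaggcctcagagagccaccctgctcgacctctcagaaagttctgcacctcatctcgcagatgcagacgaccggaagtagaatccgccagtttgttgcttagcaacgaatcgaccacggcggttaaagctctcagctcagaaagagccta
Dnah12: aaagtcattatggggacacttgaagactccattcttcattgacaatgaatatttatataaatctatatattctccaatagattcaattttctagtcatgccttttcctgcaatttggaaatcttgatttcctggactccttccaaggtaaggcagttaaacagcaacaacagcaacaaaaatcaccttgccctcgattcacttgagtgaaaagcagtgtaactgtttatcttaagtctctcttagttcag

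The kept cells numbered 4825 (SC), 4041 (5-day) and 5157 (15-day), with medians of 5131, 5779 and 4130 UMIs per cell (unique molecular identifiers, each marking 1 captured transcript molecule). Of 33 clusters, 27 were named from marker genes, and the comparisons use the 10 classes that reached 100 cells in every library; a cluster of 69 neuron-like cells led by Agrp and Npy, the feeding peptides of this nucleus, is a population of the labelled tissue. Ependymal-like cells numbered 582, 478 and 337 and tanycyte-like cells 830, 634 and 816. The 15-day library stood apart in that 6.54% of its cells were ependymal-like, against 12.1% and 11.8%, and its more deeply read ependymal-like cells had a median of 9336 UMIs against 17742 and 19152.5. The summed CPM (UMIs per 1000000 UMIs) of 11 ependymal markers was 13560, 14740 and 14500 in ependymal-like and 3630, 3715 and 3228 in tanycyte-like cells, that of 15 tanycyte markers was 9721, 9290 and 8418 against 23180, 23090 and 22460, and 6 choroid plexus markers summed to 84.0, 102.8 and 101.7 in ependymal-like cells. Barcodes that occurred in more than 1 library numbered 13 (SC and 5-day), 72 (SC and 15-day) and 85 (5-day and 15-day), of which 6 occurred in all. The members were left out of the clustering, but not of each cluster's 50 leading genes, among which markers were counted to name it.

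The axonemal genes were concentrated along the ventricle, in ependymal-like cells first and tanycyte-like cells second. All 75 had at least 1 UMI in the kept cells, with 128879, 111777 and 74030 UMIs together, or 0.263%, 0.260% and 0.211% of all UMIs. Ependymal-like cells held 32.4%, 40.2% and 30.4% of these UMIs, and the more numerous and more deeply read tanycyte-like cells held 54.96%, 46.5% and 47.3%. A typical ependymal-like cell had a median of 83.7, 85.9 and 89.1 axonemal UMIs per 10000 of its UMIs. The same median was 44.4, 44.4 and 41.5 in tanycyte-like cells, 7.01 in astrocyte-like and 9.71 in neuron-like cells over the 3 libraries, and 2.33 in microglia-like cells, the lowest of the 10 classes. Ependymal-like cells came first and tanycyte-like cells second of the 10 classes in each library.

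**Figure D1:**
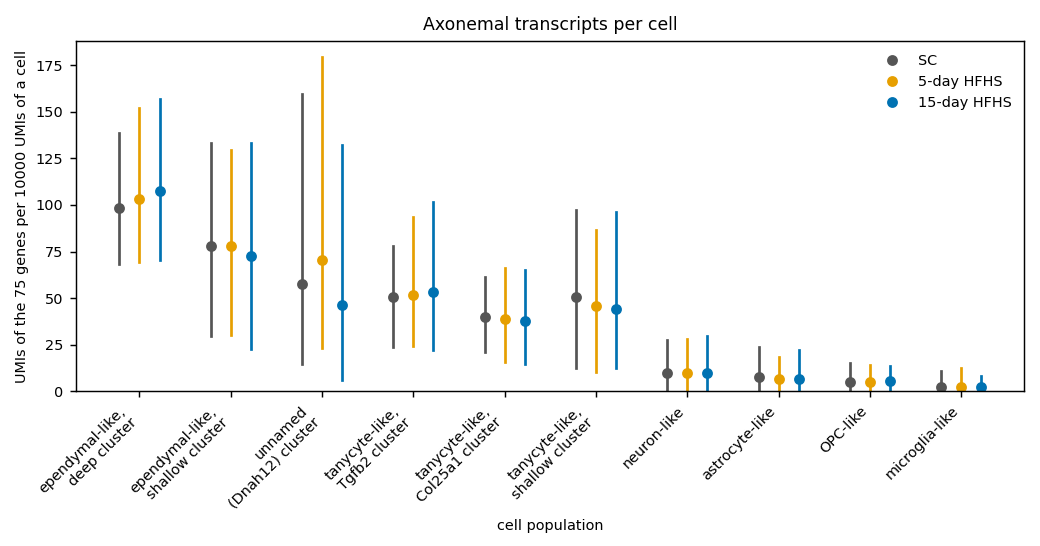
Axonemal UMIs per 10000 UMIs of a cell (vertical axis) for 10 cell populations (horizontal axis) in the 3 libraries; points are medians over cells and bars run from the 5th to the 95th percentile of cells. The ependymal-like clusters lie between 72.7 and 107.6, the tanycyte-like clusters between 38.0 and 53.2, and the neuron-like, astrocyte-like, OPC-like and microglia-like classes at 9.96 or below.

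Ependymal-like cells formed a shallow and a deep cluster by UMIs per cell, and tanycyte-like cells a shallow cluster and deep ones led by Col25a1 and Tgfb2. At 1000 UMIs per cell, a depth to which cells were thinned with shallower cells left out, a shallow ependymal-like cell had a median of 6 of the 75 genes detected in each library and a deep ependymal-like cell 8 or 9. Tanycyte-like cells had 3 to 5, astrocyte-like and neuron-like cells 1, and microglia-like, OPC-like and endothelial-like cells 0. The thinning left out 96, 66 and 67 shallow ependymal-like cells and no deep one. Cfap126 (Flattop, which helps position basal bodies) was found in 59.2%, 59.4% and 61.4% of thinned shallow ependymal-like cells (72.4%, 72.4% and 70.5% before thinning). Its share in microglia-like cells, which have no motile cilium, was 1.27%, 1.23% and 1.62% (4.87%, 5.72% and 5.41% before thinning, at medians of 5386, 4929 and 4787 UMIs against 1749, 1707 and 1250.5 in shallow ependymal-like cells), and is taken as the background that free RNA can give. Its 1.60%, 1.16% and 1.41% in astrocyte-like cells lay at that background, and its 28.2%, 26.9% and 30.7% in the Col25a1 cluster of tanycyte-like cells lay above it, as did Rsph1, a spoke head gene, at 21.3%, 15.2% and 18.9% against 0.907%, 1.64% and 1.46% in microglia-like cells. Neither Cfap126 nor Rsph1 passed the separate limit for free ependymal RNA in tanycyte-like cells that is described below. Dnah5, an outer arm heavy chain, was found in 20.3%, 20.6% and 23.9% of thinned deep ependymal-like cells, in 0, 1 and 2 cells of the Col25a1 cluster, and in 0 of 551, 487 and 616 microglia-like cells, which allows shares of up to 0.667%, 0.755% and 0.597%.

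Levels are given as CPM, the UMIs of a gene over all UMIs of a class in a library, in the order SC, 5-day and 15-day; the method reads transcript ends, so CPM is not divided by gene length, and an order of genes by CPM is one of captured UMIs. Over the 29 members that led their role groups, the upper 95% Poisson bound lay 3.25% to 16.6% above the level in ependymal-like cells. Of the 70 members with at least 30 ependymal-like UMIs, 62 were highest in ependymal-like cells in each library. The other 8 were Dnah7a, Dnah7b, Dnah14, Tekt5, Cfap36, Cfap73, Cfap97 and Cfap410. The share of all genes highest in ependymal-like cells is not given here, so the 62 is not set against genes at large.

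Outer arm heavy chains are the force-producing motors of the outer row, and Dnah5 is the chain most often mutated in primary ciliary dyskinesia. Dnah5 was at 149 (139 to 161), 162 (151 to 174) and 189 (172 to 208) CPM in ependymal-like cells, 12.9, 13.7 and 11.4 in tanycyte-like cells, 3.51, 3.94 and 2.88 in astrocyte-like cells and 5.72, 6.44 and 3.30 in neuron-like cells. No other class came near the ependymal-like level in any library. Its relatives of the same arm, Dnah9 and Dnah11, did not share that gap. Dnah9 was at 129, 156 and 179 CPM in ependymal-like and 59.6, 61.6 and 58.8 in tanycyte-like cells, and Dnah11, the proximal outer arm chain, at 89.6, 94.1 and 103 against 44.8, 43.0 and 46.5. Dnah8 and Dnah17, outer arm chains known from sperm flagella, had 7 and 0 ependymal-like UMIs; Dnah8 was instead at 12.7, 11.0 and 15.1 CPM in OPC-like cells (oligodendrocyte precursors).

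Inner arm heavy chains ranged from genes nearly absent in tanycyte-like cells to genes at about the ependymal-like level there. Dnah6 was at 207, 245 and 285 CPM against 79.0, 86.4 and 79.3, and Dnah12 at 181, 183 and 221 against 34.3, 40.7 and 27.6. Dnah3 was at 31.2 (26.3 to 36.7), 43.95 (38.2 to 50.3) and 60.2 (50.6 to 71.1) CPM in ependymal-like cells and at 0.507, 0.438 and 0.598 in tanycyte-like cells, where it rested on 8, 5 and 5 UMIs. Dnah10, of the same row, was at 54.0, 65.1 and 82.9 against 10.0, 12.3 and 9.81. COP-like cells (committed oligodendrocyte precursors) held Dnah10 at 10.4, 5.01 and 7.77 CPM, on 26, 10 and 13 UMIs. Dnah1 was also found in neuron-like cells, with 73.4, 82.9 and 88.6 CPM in ependymal-like, 17.3, 19.5 and 19.9 in tanycyte-like and 51.0, 58.0 and 46.7 in neuron-like cells. Dnah7a (chr1:53397006-53706784, minus strand) was about level between the ventricular classes, at 70.8, 63.4 and 64.6 against 60.9, 65.2 and 58.9.

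Among the leading light chains and assembly factors, the tanycyte-like level ran from near the ependymal-like one (Cfap298) to well under it (Dnaaf3). Dnal1, which binds the motor part of an outer arm heavy chain, was at 101, 110 and 122 CPM in ependymal-like, 70.5, 68.2 and 69.2 in tanycyte-like and 65.4, 51.3 and 60.5 in neuron-like cells. Dnal4, a smaller light chain, was at 65.5, 71.7 and 70.7 against 63.1, 63.1 and 56.1 in tanycyte-like cells. The assembly factor Cfap298 was at 282, 263 and 261 in ependymal-like and 275, 261 and 243 in tanycyte-like cells. Dnaaf3, which acts in preassembly of the arms, was more unequal, at 70.6, 76.3 and 71.99 against 27.0, 28.1 and 25.8. Dnaaf4 (Dyx1c1), a chaperone partner in preassembly, was at 43.5, 52.5 and 91.2 against 28.2, 29.2 and 45.8.

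The leading nexin link and radial spoke genes were highest in ependymal-like cells, with a smaller level in tanycyte-like cells. Drc3, Drc1 and Drc7, parts of the regulatory complex that ties doublets together, were at 229, 271 and 233, at 176, 175 and 173, and at 135, 144 and 131 CPM in ependymal-like cells. In tanycyte-like cells they were at 96.7, 105 and 80.8, at 72.8, 73.2 and 76.2, and at 42.7, 38.0 and 41.8. Rsph1, a spoke head protein, was at 749, 783 and 754 CPM in ependymal-like, 256, 258 and 232 in tanycyte-like, 9.75, 10.8 and 10.49 in astrocyte-like and 17.6, 33.3 and 28.6 in neuron-like cells. Rsph4a, also of the spoke head, was at 277, 276 and 259 against 110, 102 and 83.4 in tanycyte-like cells. Rsph9 reached further, with 306, 315 and 309 in ependymal-like, 218, 224 and 220 in tanycyte-like and 84.6, 87.6 and 82.3 in astrocyte-like cells.

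The leading central pair genes were highest in ependymal-like cells, with Cfap54, part of a central pair projection, at 285, 292 and 334 CPM against 87.4, 82.2 and 73.2 in tanycyte-like cells. Spef2 was at 283, 282 and 356 against 131, 141 and 134, and at 36.3, 28.7 and 35.4 in astrocyte-like cells. Spef1, which bundles central microtubules, was at 160, 182 and 164 against 73.5, 71.7 and 62.9. Among tektins and doublet proteins, most of which line the doublet from inside, Cfap126 was at 610, 612 and 671 against 362, 370 and 378. Cfap45 was at 383, 350 and 350 against 262, 252 and 211, and Tekt1 at 322, 331 and 295 against 207, 182 and 165. Tekt3 was scarce, at 5.38, 7.88 and 10.9 CPM in ependymal-like cells and 0, 0.0875 and 0.120 in tanycyte-like cells.

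The proteins that tether inner arms to the doublet were at 177, 183 and 194 CPM (Cfap100), 141, 161 and 191 (Cfap43) and 129, 125 and 144 (Cfap44) in ependymal-like cells, and at 84.1, 86.8 and 79.4, at 61.5, 65.5 and 58.3 and at 48.0, 47.4 and 46.9 in tanycyte-like cells. Among other Cfap genes, Cfap299 was at 249, 258 and 274 against 86.1, 98.1 and 78.6, and Cfap77 at 144, 159 and 140 against 39.7, 42.4 and 25.1. Cfap36, a partner of the cilium trafficking protein ARL3, was broad instead, at 273, 221 and 257 in ependymal-like, 242, 228 and 219 in tanycyte-like and 131, 150 and 161 in neuron-like cells, and at 205, 183 and 179 in COP-like cells.

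**Figure D2:**
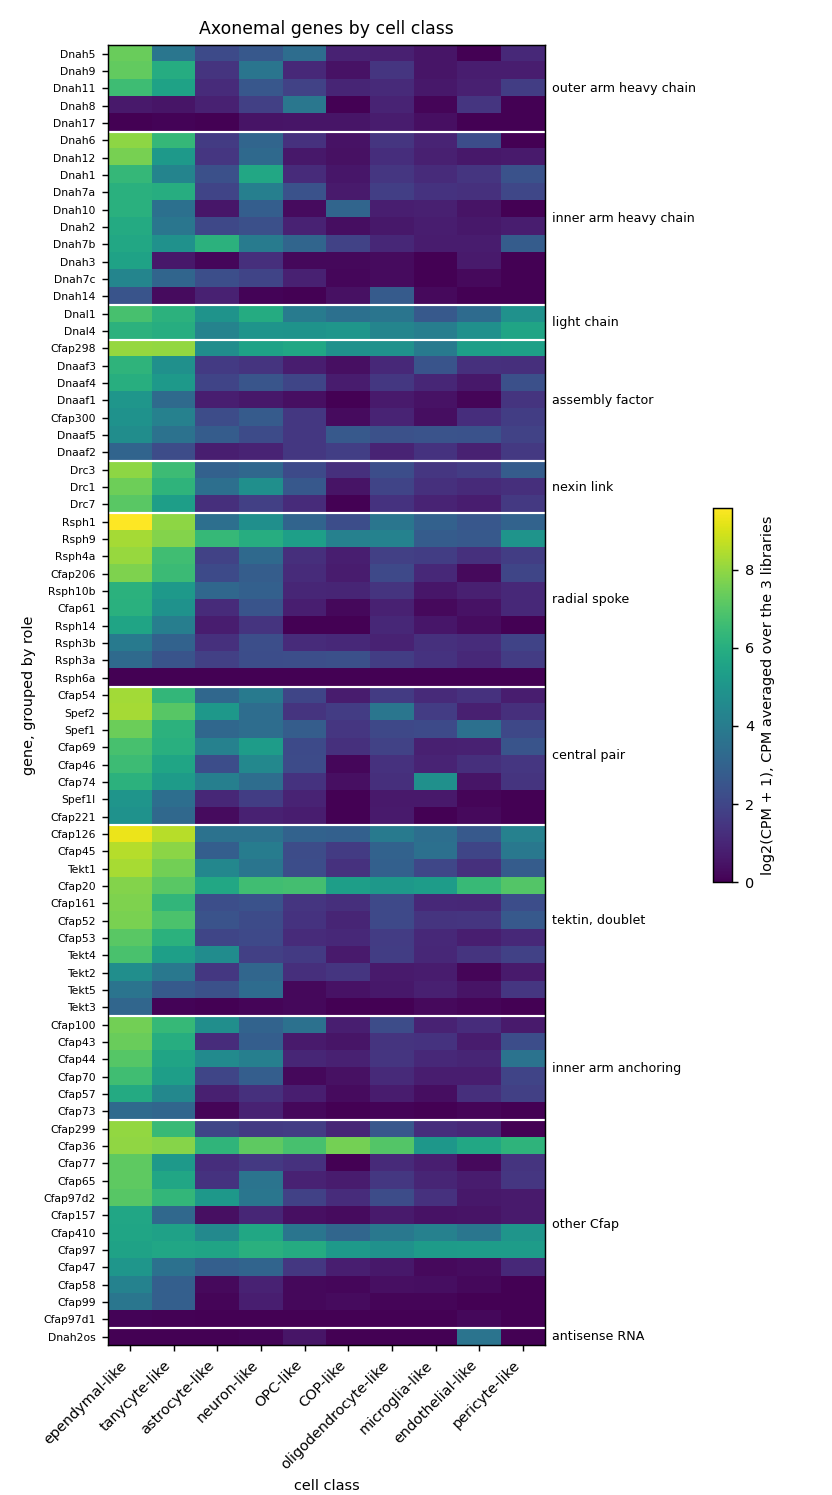
Level of each of the 75 genes (vertical axis, grouped by role) in 10 cell classes (horizontal axis), as log2(CPM + 1) of the mean CPM of the 3 libraries. The ependymal-like column is the brightest for most genes and the tanycyte-like column follows it; Cfap20, Cfap36, Cfap97 and Cfap410 have values in every column, and Dnah2os has its highest value in the endothelial-like column.

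A gene was called ependymal-specific when its ependymal-like CPM was at least 5 times that of each of the 9 other classes in each library; a class at 0 to 2 UMIs was set to 3 UMIs. This held for 3 of 70 members, Dnah5 (lowest ratio 11.0), Dnah3 (5.66) and Dnah10 (5.20), against 0.622% of 12550 genes with at least 30 ependymal-like UMIs. The Dnah3 ratio was set by the small pericyte-like class of the SC library, counted at 3 UMIs. Its lowest ratio over tanycyte-like cells was 61.6. Leaving out the SC, 5-day or 15-day library in turn gave 4, 4 and 3 members. With at most 10% mitochondrial UMIs, or with each library clustered on its own, 0 members passed; some or all deep ependymal-like cells were then unnamed. When tanycyte-like cells were not counted among the other classes, a choice made after seeing the data, 36 of 70 members passed, against 2.25% of genes. The tanycyte-like CPM was at least 2 times that of every class but ependymal-like cells for 35 of 70 members, against 2.5% of genes. Just outside the limit over all classes were Cfap157 (4.64) and Dnah12 (4.50). Without tanycyte-like cells, Rsph14 (5.08) and Dnah10 (5.20) were just inside and Cfap298 (4.53) and Tekt4 (4.23) just outside. Low members such as Tekt3 could not pass, because 3 UMIs in a small class is a high CPM.

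Tanycyte-like cells fell into clusters of different depth, and so did ependymal-like cells, so members were compared between the deep clusters. The deep ependymal-like cluster had 133, 126 and 117 cells. A tanycyte-like cluster led by Col25a1, Crym and Rax had 362, 257 and 365 cells and medians of 14217, 14828 and 8731 UMIs, and one led by Tgfb2 and Rspo3 had 231, 151 and 163 cells and medians of 13767, 13539 and 6905. In the Col25a1 cluster the ependymal marker Ccdc153 was at 23.1, 15.6 and 14.1 CPM against 1664, 1875 and 2046 in the deep ependymal-like cluster, and the tanycyte factor Rax at 513, 551 and 550 against 17.99, 16.4 and 10.8. The 75 genes together were at 3980, 3969 and 3718 CPM in the Col25a1 cluster and 5161, 5330 and 5254 in the Tgfb2 cluster.

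Most members were present in the deep tanycyte-like clusters at 25% to 100% of the ependymal-like level. In the Col25a1 cluster the median member stood at 32.7% of its level in the deep ependymal-like cluster, against 93.3% for 12184 genes; 49 of 70 members lay between 25% and 100% (45.6% of genes), 6 under 10% and 3 over 100%. In the Tgfb2 cluster the median was 49.8% (96.7% for all genes), with 62 members between 25% and 100% (49.9% of genes). In the Col25a1 cluster 65 of 70 members were below the deep ependymal-like level in each library, against 44.6% of genes, and for 60 the 95% counting interval lay below 100% in each library, against 27.6%. In the Tgfb2 cluster these counts were 63, against 37.9%, and 55, against 17.6%. The deep ependymal-like level was at least 5 times the Col25a1 cluster's for 11 of 70 members, against 6.84% of genes, and at least 5 times the Tgfb2 cluster's for 3 of 70, against 1.87%.

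Members of each role were then set side by side, with no test between roles. In the Col25a1 cluster the role medians were 13.9% for inner arm heavy chains, 24.9% for outer arm heavy chains, 30.5% for inner arm anchoring, 33.3% for radial spokes, 34.4% for both central pair and nexin link genes, 44.7% for assembly factors, 51.9% for tektins and doublet proteins and 75% for the 2 light chains. Members of a role varied widely, from 0.373% to 91.7% among inner arm heavy chains and from 0.639% to 64.5% among tektins and doublet proteins. The order of roles was another one in the Tgfb2 cluster, where outer arm heavy chains had a median of 51.5%, above nexin links (44.3%) and inner arm anchoring (45.7%), and inner arm heavy chains had 29.4%. Dnah3 was lowest, with 0, 2 and 2 UMIs in the 3 libraries, and pooled at 0.373%. Dnah5 stood at 1.26% (0.773 to 1.94), 1.56% (0.935 to 2.46) and 2.12% (1.37 to 3.16), and Dnah12 at 7.35%, 11.0% and 6.42%. Rsph1 stood at 30.7%, 29.4% and 28.1% and Cfap126 at 67.3%, 63.0% and 57.6%. Cfap298 at 110%, 104% and 103%, Dnah7a at 83.8%, 105% and 86.7% and Cfap97 at 115%, 130% and 91.3% were near the ependymal-like level. In the Tgfb2 cluster Dnah5 stood higher, at 16.1%, 15.9% and 13.8%, and Dnah12 at 28.1%, 32.1% and 23.8%. The ependymal reference genes described next stood higher there as well.

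Other ependymal genes, used here as a reference for free ependymal RNA, gave unequal shares in the Col25a1 cluster. Sntn, a protein of the ciliary tip, stood at 0.464%, 0.157% and 0.231% of the deep ependymal-like level, Ccdc153 at 1.39%, 0.832% and 0.690%, and Fam216b at 2.08%, 2.92% and 2.29%. Fam183b, at 57.7%, 52.4% and 47.8%, and the dynein assembly gene Zmynd10, at 34.3%, 27.5% and 20.8%, stood as high as many members. The shares of these 5 genes in the Col25a1 cluster ran from 0.157% to 57.7%. All 5 stood higher in the Tgfb2 cluster. Sntn was at 2.51%, 0.961% and 2.61% there, Ccdc153 at 10.2%, 9.24% and 8.33%, and Fam216b at 30.5%, 29.4% and 25.5%. Fam183b was at 78.0%, 77.9% and 73.4%, and Zmynd10 at 40.7%, 36.8% and 35.4%. The part of free RNA in single members' levels was not tested in either cluster.

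**Figure D3:**
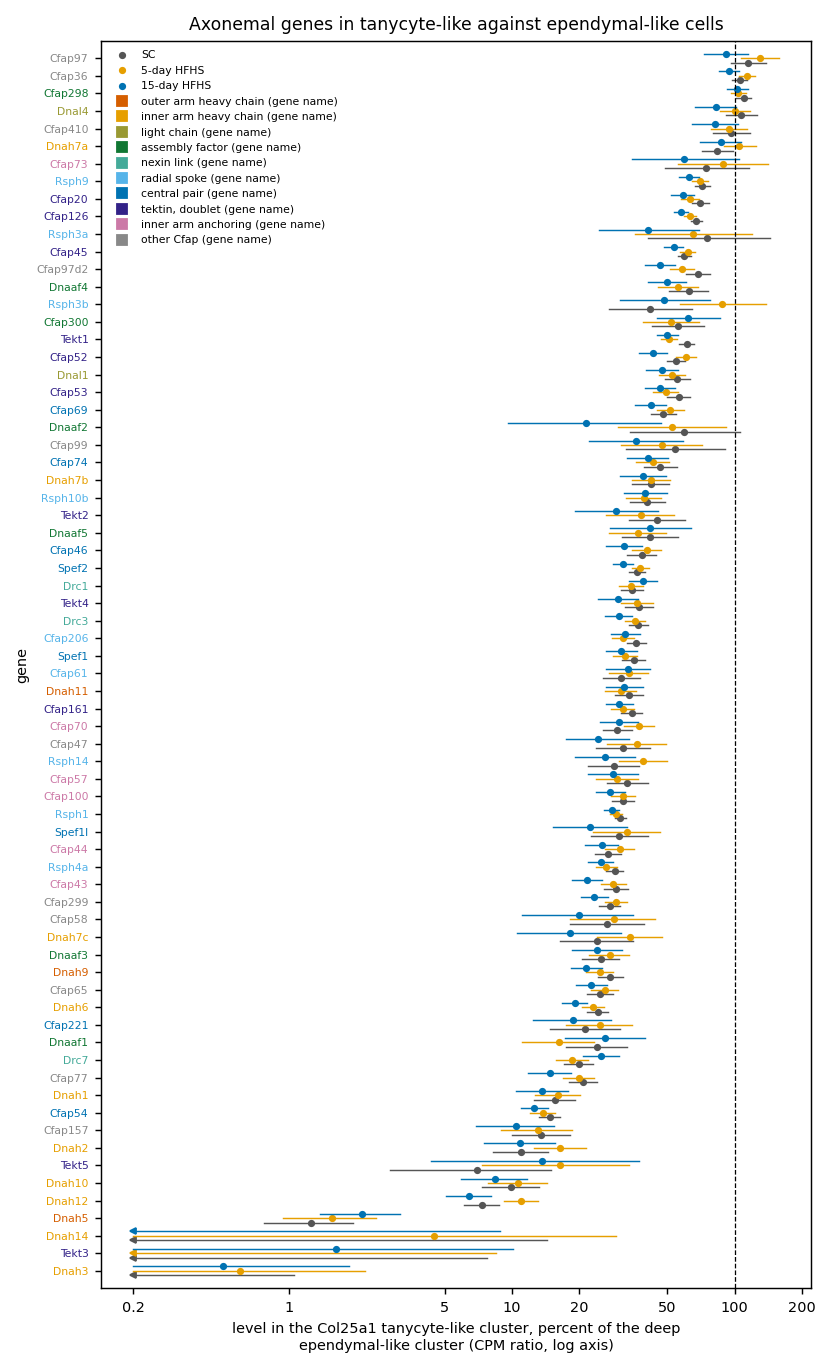
CPM in the Col25a1 tanycyte-like cluster as percent of the deep ependymal-like cluster (horizontal log axis) for 70 members (vertical axis, names coloured by role), in the 3 libraries with 95% counting intervals; triangles mark values below the axis. Dnah3, Tekt3, Dnah14 and Dnah5 lie at the low end, 49 of 70 members lie between 25% and 100%, and Cfap97, Cfap36 and Cfap298 lie at the dashed line of 100%.

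Members found outside ependymal-like cells were called with a margin for free ependymal RNA. A member counted as above the leak in a class when it had at least 10 UMIs there in each library and the lower bound of its ratio to the ependymal-like CPM was above 3 times the same ratio of 10 ependymal reference genes. The 10 were Ccdc153, Tmem212, 1700012B09Rik, Fam183b, 1700016K19Rik, Fam216b, Sntn, Hydin, Zmynd10 and Ak7. Hydin, Zmynd10 and Ak7 also stand in the lists of other cilium genes below, so the reference was not independent of the motile cilium. Ccdc153, Tmem212, 1700012B09Rik and Fam183b are ependymal markers that named clusters and were not left out of the clustering. Their ratios are therefore not independent of the naming. The reference ratio was 22.5%, 20.3% and 17.1% in tanycyte-like cells, 1.253%, 0.772% and 1.05% in astrocyte-like and 2.07%, 2.88% and 2.35% in neuron-like cells. In tanycyte-like cells 6 of 70 members passed, against 57.2% of genes: Cfap298, Cfap36, Dnal4, Dnah7a, Cfap97 and Cfap410. With only the 4 reference genes of lowest tanycyte-like ratio (Ccdc153, Tmem212, Sntn, Fam216b), chosen after seeing the data, 61 of 70 passed, so the count rested on which genes stood for free RNA. The share of all genes passing with these 4 is not given here, so the 61 is not set against genes at large. With the 10 reference genes, 21 of 70 passed in astrocyte-like cells, against 85% of genes, and 20 of 70 in neuron-like cells, against 83.9%. With the 10 reference genes, the members' share lay under that of genes at large in all 3 classes.

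The members above the leak in astrocyte-like cells with the most UMIs were Rsph9, Cfap36, Dnah7b, Cfap20, Cfap97 and, with 337 UMIs each, Spef2 and Cfap97d2. Dnah7b, an inner arm heavy chain, was at 88.9 (77.7 to 101), 52.1 (45.1 to 59.8) and 69.7 (61.6 to 78.6) CPM in astrocyte-like cells, against 46.5 (40.5 to 53.1), 53.1 (46.8 to 59.99) and 59.8 (50.2 to 70.7) in ependymal-like and 26.6, 28.8 and 28.0 in tanycyte-like cells. In the SC library the astrocyte-like level lay above the ependymal-like one with no overlap of intervals; in the 5-day and 15-day libraries the intervals overlapped. Within the class it was at 66.0 and 109 CPM in the 2 larger clusters and 7.19 in a small cluster led by Gfap. Dnah7b lies at chr1:46066315-46373546 (plus strand), beside its copy Dnah7c (chr1:46425592-46807476), and shared 23.6% of its transcript end sequence, in words of 31 bases, with other genes, so that part of its reads may not be assigned to it. Cfap20, a doublet protein also needed by primary cilia, was at 50.3, 47.1 and 59.0 in astrocyte-like cells, Cfap97 at 50.3, 42.9 and 49.8, and Cfap97d2 at 32.8, 33.4 and 33.0.

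In neuron-like cells those with the most UMIs were Cfap36, Cfap20 (95.4, 94.7 and 103 CPM), Cfap97 (67.5, 61.8 and 67.9), Rsph9 (43.0, 70.4 and 70.4), Dnal1 and Dnah1. Dnah1 (chr14:31260375-31323896, minus strand) was at 73.6 CPM in the largest neuron-like cluster (582 cells, led by Snhg11 and Meg3), at 42.6 in the Agrp and Npy cluster, 33.5 in a cluster led by Resp18 and Cartpt, and 30.5 in a shallow cluster led by Avp and Sst, so it was present in all 4 neuron-like clusters. Cfap410, linked to photoreceptor cilia, was at 48.7, 54.0 and 49.2 against 46.7, 47.1 and 51.9 in ependymal-like cells. Of the 21 astrocyte-like and 20 neuron-like members, 13 were shared, or 61.9% and 65% of each list, and 5 of these also passed in tanycyte-like cells. Over all genes 9829 were shared, or 92.2% and 93.4% of each list. Outside these classes, the central pair gene Cfap74 was at 25.6, 29.7 and 25.6 CPM in microglia-like cells, and Dnah14 at 6.23, 7.67 and 3.08 in oligodendrocyte-like against 3.01, 3.32 and 7.42 in ependymal-like cells.

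Of the 75 genes, 5 had fewer than 30 ependymal-like UMIs: Dnah2os, Dnah17 and Rsph6a had 0, Cfap97d1 1 and Dnah8 7. A count of 0 allowed up to 0.794, 0.765 and 1.61 CPM in the 3 libraries (upper 95% Poisson bound). Dnah17 and Rsph6a are known from sperm, and Dnah2os is an RNA antisense to the inner arm chain gene Dnah2 by name (chr11:69448548-69453676, plus strand). Dnah2os was mainly an endothelial-like transcript, with 110 of its 135 UMIs there, at 10.7, 12.95 and 12.2 CPM in that class and 0 in ependymal-like, tanycyte-like and astrocyte-like cells. Reads of 10 other members could be shared in counting with overlapping genes or near-identical copies: Spef1, Dnaaf2, Dnaaf3, Dnaaf4, Cfap43, Dnah7c, Cfap299, Rsph10b, Rsph3a and Rsph3b. Dnah7a also shared 34.8% of its end words with Dnah7b and Dnah7c.

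Ependymal-like cells were a mix of shallow cells (449, 352 and 220 cells, medians of 1749, 1707 and 1250.5 UMIs) and deep cells (medians of 17742, 19152.5 and 9336 UMIs). Mitochondrial genes took 2.10%, 3.08% and 2.69% of UMIs in the shallow and 6.56%, 6.45% and 7.31% in the deep cluster. Both held high Ccdc153 (1875, 2232 and 2412 CPM in the shallow cluster). Long axonemal genes took a smaller share of UMIs in shallow than in deep cells, and short ones a larger share. The log2 ratio of shallow over deep CPM, over 66 members and the 3 libraries together, had a Spearman correlation of -0.79 with the length of the longest annotated transcript, against -0.68 over 9911 other genes (the points share libraries and are described without a test). The 22 members over 5000 bases had a median ratio of -2.66 and the 18 under 2000 bases one of 0.38; other genes had -1.36 and 0.44.

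Dnah3 was at 3.75 CPM in shallow and 50.6 CPM in deep ependymal-like cells, a log2 ratio of -3.76 (-3.65, -3.81 and -3.62 by library). Dnah2 was at -3.46, Cfap46 at -3.22, Dnah5 at -2.82 and Cfap54 at -2.18 on the same scale. Some short genes lay on the other side of 0, with Cfap126 at 0.81 and Tekt5 at 1.10. Dnah7a departed from the trend, at 0.51 with a longest transcript of 12245 bases, while its copy Dnah7b was at -3.24. Tanycyte-like cells showed a like relation (-0.68 over 63 members, -0.50 over 10870 other genes). What separates shallow from deep cells was not tested.

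**Figure D4:**
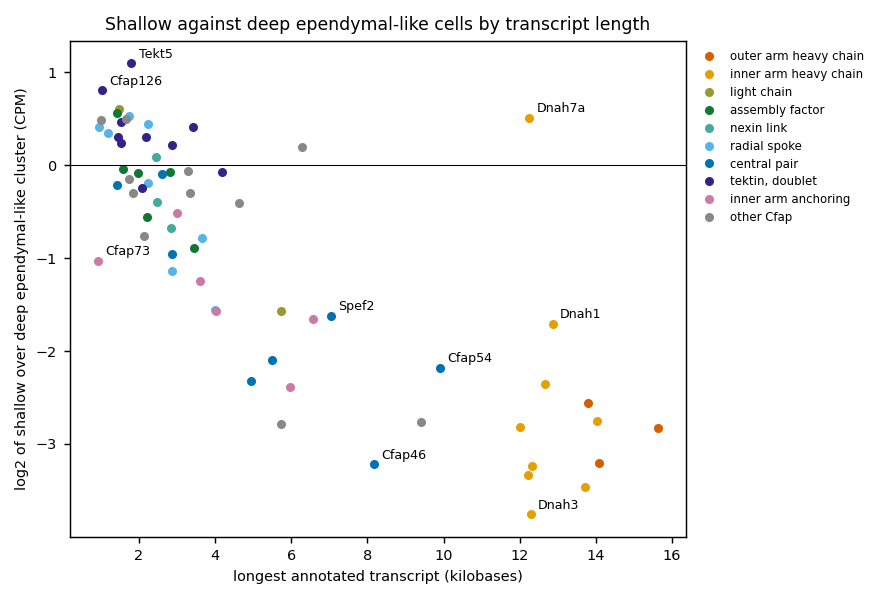
Log2 ratio of CPM in the shallow over the deep ependymal-like cluster (vertical axis) against the longest annotated transcript in kilobases (horizontal axis) for 66 members, coloured by role. Heavy chains lie between -1.71 and -3.76 except Dnah7a at 0.51, and the 18 members under 2 kilobases have a median of 0.38.

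A further cluster of 206 shallow cells (84, 35 and 87) was led by Gm47423, Dnah12 and Lrriq1 and had too few markers of any class to be named. Mitochondrial genes took 12.6%, 11.3% and 8.44% of its UMIs. Dnah12 was at 349, 583 and 67.9 CPM there, on 47, 30 and 24 UMIs, and Dnah7b at 215, 175 and 50.9, on 29, 9 and 18 UMIs, so that the 15-day library was lowest for both. By contrast Rsph1 was found in 4.48%, 6.90% and 8.62% of its thinned cells against 52.4%, 55.9% and 56.9% of shallow ependymal-like cells. Its median was 57.7, 70.5 and 46.3 axonemal UMIs per 10000.

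Other genes of the cilium, from 8 lists that do not hold the members, were counted in the same way. Dynlrb2, listed with the dynein arm genes, is also an ependymal marker and was not left out of the clustering. Without tanycyte-like cells, the 5-fold rule held for 13 of 19 spoke and central pair genes under other names, 9 of 15 doublet inner proteins, 10 of 19 dynein arm genes, 4 of 9 nexin and ruler genes and 3 of 5 docking genes, beside 1 of 26 intraflagellar transport genes and 0 of 17 BBSome and primary cilium genes (36 of 70 members, 2.25% of genes). The median tanycyte-like level was 39.0% to 49.7% of the ependymal-like level in the motile lists, 42.7% for the members, 64.7% for intraflagellar transport and 78.2% for primary cilium genes. Ak7, an adenylate kinase of the axoneme, was at 374, 372 and 404 CPM in ependymal-like and 90.1, 96.1 and 73.8 in tanycyte-like cells. Meig1 was at 952, 1005 and 1025 against 272, 282 and 234, and the dynein gene Tctex1d4 at 317, 367 and 370 against 24.2, 23.7 and 19.9. Ift20 and Arl3, of the general cilium machinery, were at 314, 373 and 380 against 242, 241 and 236, and at 421, 419 and 419 against 400, 374 and 389.

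Of the regulators of ciliogenesis, Foxj1 was at 446, 465 and 446 CPM in ependymal-like and 157, 143 and 124 in tanycyte-like cells. Foxj1 is among the 11 ependymal markers that named clusters and was not left out of the clustering, so its difference is not independent of the naming. Rfx4 was higher in astrocyte-like cells (185, 212 and 180) than in ependymal-like cells (121, 109 and 105), and Rfx3 was about even between ependymal-like (105, 101 and 118) and tanycyte-like cells (110, 107 and 101). The docking gene Armc4, which fixes outer arms to the doublet, was at 99.5, 108 and 99.9 against 15.3, 19.3 and 17.1, whereas Ccdc114 of the same complex was at 133, 133 and 151 against 136, 149 and 150. The 8 genes most alike to the summed CPM of Dnah3, Dnah5 and Dnah10, by Pearson correlation of log2(CPM + 1) over 83 pairs of cluster and library, were Dpy19l2 (0.83), Rgs22 (0.82), Rabl2, Ttc21a, Gm16083 and Scube3 (each 0.80), Crocc2 and Slc6a19 (each 0.79). These points share libraries and depth, and the values are descriptions.

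Between diets, most axonemal genes compared in ependymal-like cells were slightly above SC, by less at 5 than at 15 days, and the medians moved to about 0 or below under some alternatives. A gene was compared when it had at least 100 UMIs in the 2 libraries together and 30 CPM in either, and called when it differed at least 1.5 times with an interval clear of a ratio of 5 to 4. At 5 days 0 of 54 members were called higher (0.087% of 5745 genes) and 0 lower (0.139%). Of the 54, 41 were above and 13 below SC, against 2680 of 5745 genes above. The median log2 ratio was 0.08 (all genes -0.01). At 15 days 3 of 58 were called higher (0.894% of 5814 genes) and 0 lower (0.722%). Of the 58, 45 were above and 13 below SC, against 2610 of 5814 genes above. The median was 0.21 (all genes -0.03). The 3 called higher at 15 days were Dnaaf4, Dnah3 and Dnah10, an assembly factor and inner arm motors. Both comparisons use the same SC library. The deep cluster made up 22.9% (19.5 to 26.5), 26.4% (22.5 to 30.6) and 34.7% (29.6 to 40.1) of ependymal-like cells and held 79.0%, 83.3% and 84.6% of their UMIs. With the mix held fixed, at equal weight for the shallow and deep clusters, the 15-day median was 0.14, and in the deep cluster alone it was 0.18. Equal weight also gave the shallow cluster more than its share of UMIs, so the part of the mix was not measured on its own. The 15-day median was -0.0087 in the shallow cluster alone, 0.0406 with cells thinned to 1000 UMIs and -0.0116 with at most 10% mitochondrial UMIs. The 5-day median was -0.018, -0.024 and -0.015 under the same 3 alternatives in that order, and -0.22 when libraries were clustered separately. In that last setting the 5-day deep cells stayed unnamed while the SC deep cells were named, so the 2 libraries were compared at unlike mixes of shallow and deep cells. The shallow cluster alone allowed 27 members at 5 days and 26 at 15 days, so its medians cover another set of genes. Deep cells were unnamed at the 10% limit, and thinned cells were mostly shallow (353 shallow and 133 deep in SC). These 3 alternatives therefore overlap in resting on shallow cells.

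Dnaaf4 (chr9:72958785-72973064, plus strand) was at 43.5 (37.7 to 49.9), 52.5 (46.2 to 59.3) and 91.2 (79.2 to 104) CPM in ependymal-like cells. The 15-day level lay above both others with no overlap of intervals, a log2 ratio to SC of 1.07 (0.78 to 1.35). The ratio was 1.06 in the deep cluster alone and 1.10 in the shallow cluster alone, where it was not called. Dnaaf4 was also the only member called higher in tanycyte-like cells at 15 days (1 of 43, 0.758% of 5408 genes), at 45.8 (41.4 to 50.7) against 28.2 (25.7 to 30.98) CPM and a log2 ratio of 0.70 (0.50 to 0.90). Cfap77 was the only member called lower there (1 of 43, 0.666% of genes), at 25.1 against 39.7 CPM and a log2 ratio of -0.66 (-0.89 to -0.43); in ependymal-like cells its ratio was -0.05 (-0.24 to 0.15). Dnaaf4 overlaps another annotated gene, Gm44503, and its reads could be shared with that gene in counting.

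Dnah3 was at 31.2, 43.95 and 60.2 CPM in ependymal-like cells, so that the SC library was lowest and the 15-day library highest, with a log2 ratio of 0.95 (0.60 to 1.29) at 15 days and 0.49 (0.18 to 0.81) at 5 days. Dnah10 was at 54.0, 65.1 and 82.9, with ratios of 0.62 (0.34 to 0.90) and 0.27 (0.02 to 0.51). In the deep cluster alone the 15-day ratios were 0.86 for Dnah3 and 0.52 for Dnah10, and the latter no longer met the rule. It also missed the rule with the mix of clusters held fixed (0.57), with doublets kept (0.59) and without the cell of most UMIs (0.59). With cells thinned to 1000 UMIs the ratios were 0.91 (Dnaaf4), 1.23 (Dnah3) and 1.36 (Dnah10), and with at most 10% mitochondrial UMIs, where the deep cells stayed unnamed, 1.03, 0.86 and 0.86; none of the 3 met the rule in either case. In tanycyte-like cells Dnah10 had a 15-day ratio of -0.03 (-0.43 to 0.37), and over 43 members the median was -0.05 (all genes -0.07).

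The 15-day ratios moved with transcript length. Of 21 members over 5000 bases, 20 were above SC, with a median of 0.34, against 828 of 1442 other genes of that length and a median of 0.03. Of 15 members under 2000 bases, 10 were above SC, with a median of 0.11, against 551 of 1476 other genes of that length and a median of -0.07. In the deep cluster alone 21 of 21 long members were above SC, with a median of 0.26, against 725 of 1562 other long genes and a median of -0.02; in the shallow cluster only 3 long members could be compared. Of the 58 members compared, the lowest 15-day ratio was that of Cfap52, a doublet protein, at 217, 202 and 175 CPM and a ratio of -0.31 (-0.48 to -0.14). Depth per deep cell moved with the diets as well (17742, 19152.5 and 9336 UMIs), and its part in these ratios was not tested; diet and library cannot be told apart.

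**Figure D5:**
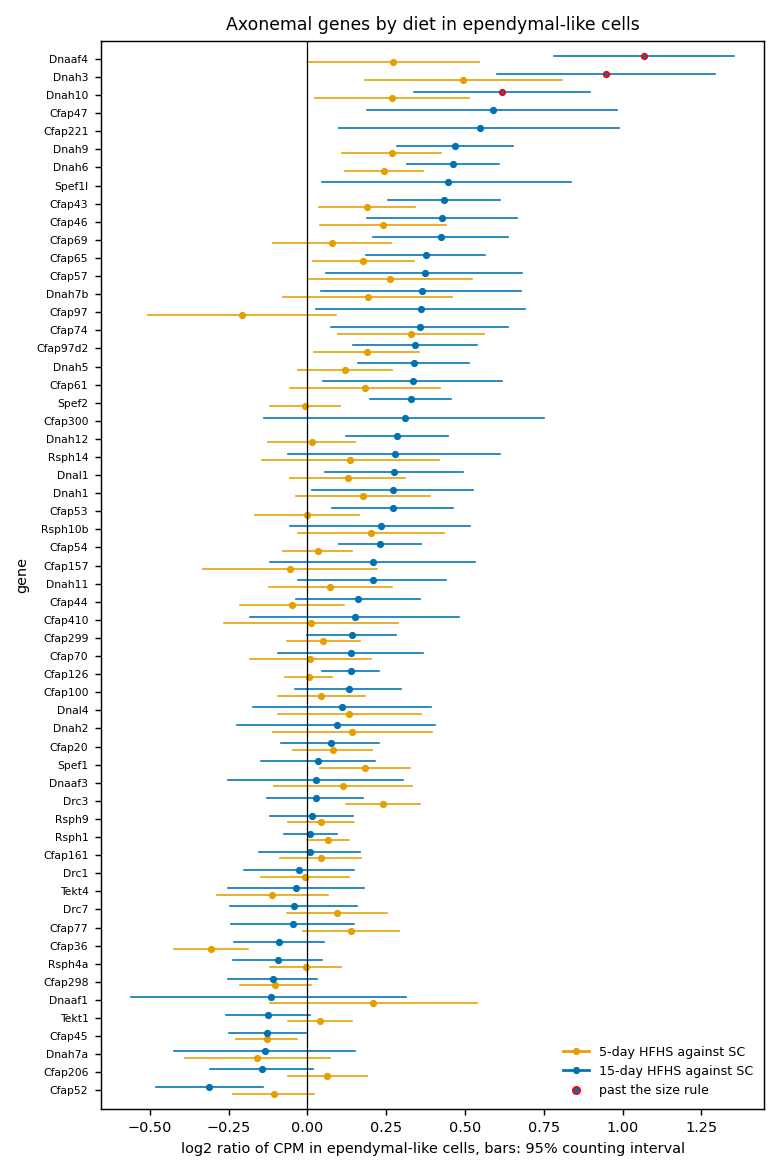
Log2 ratio of CPM in ependymal-like cells, 5-day and 15-day HFHS against SC (horizontal axis), for the members compared (vertical axis), with 95% counting intervals; red edges mark members past the size rule. At 15 days 45 of 58 points lie right of 0, against 2610 of 5814 genes above SC. The 3 members past the size rule are Dnaaf4 (1.07), Dnah3 (0.95) and Dnah10 (0.62).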

How the data were processed

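The authors deposited a matrix of raw UMI counts per gene and barcode for each library, per the file headers, which name software version 3.1.0. The submitters' processing notes name Cell Ranger, SAMtools, Scanpy 1.4.4 and GRCm38; the gene annotation is not given in the sources used here. Libraries were made with a 10x droplet kit that reads transcript 3' ends, per the labels' protocols. The deposited barcodes numbered 7116 (SC), 6204 (5-day) and 7823 (15-day), with 59315940, 52735770 and 43193012 UMIs.

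Barcodes with under 500 genes or over 20% mitochondrial UMIs were left out, and the highest Scrublet doublet scores were removed at 0.8% per 1000 barcodes. The libraries were clustered together (3000 variable genes, 40 principal components, 15 neighbours, Leiden resolution 1, seed 0), without the 75 genes and the other listed cilium genes that are not class markers. A cluster was named "X-like" where at least 3 markers of a type were among its 50 leading genes. It stayed unnamed where types tied, where another type had more markers among the 10 leading genes, where 1 library gave more than 90% of the cells, or where cells were much shallower than their library's median and none of the 10 was a marker. Counts were then summed per class and library; levels carry exact Poisson, ratios exact conditional binomial and shares Clopper-Pearson intervals (95%). With 1 library per diet no test across samples was run. The members and gene lists were chosen with earlier results of these data known. Named with values are the 3 members with most ependymal-like UMIs per role, up to 6 per class above the leak, those past the diet rule, up to 5 with fewest UMIs, up to 3 per other cilium list and the 8 most alike genes; others named were chosen after their values were seen. Transcript lengths and gene coordinates are from a GENCODE annotation of GRCm38. Alternatives changed the clustering, the filters, doublets, single cells' weight, depth, scaling and limits; leaving out libraries, the tanycyte-like class or reference genes, and taking the deep or shallow cluster alone, were chosen after seeing the data. Scripts were tested on simulated data. The work used Python 3.11.15 with Scanpy 1.11.5, leidenalg 0.10.2, igraph 0.11.9, scikit-learn 1.9.0, SciPy 1.17.1, AnnData 0.12.19, pandas 2.3.3, Matplotlib 3.10.9 and NumPy 2.4.6.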

Additional observations from a re-analysis of the deposited data

Results flagged for a closer look

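Barcodes left out for more than 20% mitochondrial UMIs, which no comparison above uses, also held axonemal transcripts. The 75 genes made up 0.143% (0.139 to 0.146) of the non-mitochondrial UMIs in 1459 such barcodes of the SC library, 0.150% (0.146 to 0.154) in 1222 of the 5-day library and 0.134% (0.13 to 0.138) in 1451 of the 15-day library. The kept cells had 0.280%, 0.278% and 0.226%. The ependymal marker Ccdc153 was at 31.3, 57.8 and 37.2 CPM and the tanycyte marker Rax at 29.0, 14.3 and 29.2 CPM in these barcodes.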

How the results depend on the processing

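No paired analysis was possible because each diet had 1 library. Of the alternatives for counts and medians, 101 stayed within the limits set for no change and 32 did not. The counts under alternatives are of members, without the share of all genes under the same setting. The exception is the 36 without tanycyte-like cells (2.25% of genes). The other counts are therefore not set against genes at large. The count of 3 members 5 times above every class became 0 with a limit of 10% mitochondrial UMIs, 0 with each library clustered on its own, 1 at 10 times, 35 at 2 times and 36 without tanycyte-like cells; leaving out a library gave 3 to 4. With 10% mitochondrial UMIs the deep ependymal-like cells (213 cells) had 2 ependymal markers among their 50 leading genes and stayed unnamed, as did the 5-day deep cells (153 cells) when clustered alone. Members above the leak in tanycyte-like cells (6) became 13 with the 10% limit, 0 at 10 times and 58 at 1 times the reference ratio, and 61 with 4 reference genes. In astrocyte-like cells 21 became 12 at 10 times. In neuron-like cells 20 became 13 at resolution 2, 12 with the 10% limit, 8 at 10 times, 32 at 1 times and 37 with 4 reference genes.

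At 5 days the 0 members higher became 1 with each library clustered on its own, 1 with every cell given equal weight and 1 in the shallow cluster. The 0 lower became 24 with libraries clustered on their own, where the median log2 ratio of 0.08 became -0.22, and thinned cells gave -0.024. With libraries clustered on their own, the 5-day deep cells were unnamed and the SC deep cells were named, so unlike mixes were compared. At 15 days the 3 members higher became 1 with the 10% limit, 9 with equal weight, 0 with thinned cells, 5 with at least 50 UMIs and no CPM limit and 0 in the shallow cluster. The 0 lower became 1 with the 10% limit, 1 with equal weight and 1 in the shallow cluster. The median of 0.21 became -0.0116 with the 10% limit, 0.0406 with thinned cells and -0.0087 in the shallow cluster, where 26 members were compared. Other scalings moved log2 ratios by at most 0.03. Where no construction is given, the cause was not tested.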
